A study of Homo sapiens with 4 samples.

Results

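The ZNF genes were taken here as every gene whose symbol starts with ZNF and a digit, and 222 of the 9667 genes in the deposited tables met that rule. Their RNA was measured by FLASH-seq, a method that crosslinks RNA to protein with UV-C light, captures a biotinylated protein on streptavidin and sequences the RNA that stays attached after RNase I digestion. All 4 libraries came from RPE1 iCas9 p53/puro-dKO CFAP20-KO cells, a human retinal pigment epithelial line that carries the iCas9 and p53/puro-dKO modifications named in its labels and lacks CFAP20. The 2 CFAP20-KO libraries carried no tagged protein and were the negative control, and the 2 tagged-CFAP20 libraries came from the same knockout cells expressing FLASH-BIO-CFAP20. The study asked whether CFAP20, a protein best known from cilia, binds RNA. The labels do not say whether the replicates were separate cultures, so the tests measure the spread between libraries, which may be technical. The labels name no promoter or clone for the tagged protein.

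Most ZNF genes encode proteins with repeated C2H2 zinc fingers, small folds that hold a zinc ion between a pair of cysteines and a pair of histidines and read DNA. In the large KRAB group the fingers sit behind a KRAB domain, which recruits TRIM28 and through it the methyltransferase SETDB1, and many of these proteins silence transposable elements. The genes lie in clusters of tandem duplicates, above all on chromosome 19, and the whole array of fingers is usually encoded in 1 long last exon. Here 110 of the 222 genes lay on chromosome 19 and 173 encoded 6 or more fingers in the GENCODE 44 canonical coding sequence. A further 39 encoded 1 to 5 fingers, 6 had a coding sequence without a match to the C2H2 pattern and 4 had no coding sequence. The 6 without a match were ZNF185, ZNF330, ZNF365, ZNF395, ZNF703 and ZNF750. Those without a coding sequence were ZNF812, which GENCODE lists as ZNF812P, and the antisense genes ZNF252P-AS1, ZNF385D-AS2 and ZNF561-AS1. The median length was 20.3 kb, against 17.2 kb for the other 9445 genes.

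The deposited values were coverage in bins of 200 bases along each gene, and every value was a whole multiple of a constant of its library. That multiple was read as the number of overlaps between a read and a bin (a read touched 1.37 bins on average), and values of a gene are its summed signal in the authors' units. Libraries differed widely in depth, with 26178 and 11243 read overlaps in all windows of the CFAP20-KO libraries and 472804 and 382584 in the tagged-CFAP20 libraries. A single overlap was therefore worth 83.0 and 276.9 units of signal in the CFAP20-KO libraries and 12.9 and 13.9 in the tagged-CFAP20 libraries. Depth and group cannot be told apart in this design. With 3 reads taken as the limit that a count of 0 allows, a ZNF gene at 0 in both CFAP20-KO libraries could have had a mean signal of up to 263.2 there; intervals and limits cover counting error only. Of 7 markers of the RPE1 line, only CCND1 had a row, and it had signal in all 4 libraries, while the 2 blood and 2 liver markers with a row were at 0 in all of them. The 1 neuron marker with a row, SNAP25, had 11 and 15 overlaps with tagged CFAP20 and none in CFAP20-KO. Of the 4 markers of mature retinal pigment epithelium with a row, OTX2 had 26 and 34 overlaps with tagged CFAP20 and MITF 31 and 21. The other markers of that list had few, 4 and 2 for RPE65 and 1 and 0 for RLBP1.

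Of the bins with many reads, 5 are printed as examples for the descriptions of position and base composition below. They were picked among bins with some coding sequence and no untranslated base. The 20 bins with 10 or more tagged-CFAP20 overlaps held 4.32% of those overlaps on ZNF genes, so such bins do not stand for the whole signal. Each is 1 bin of 200 bases of the hg38 genome on the strand of its gene. The first 3 are the bins with most overlaps of ZNF316 at chr7:6642622-6642821 (plus strand), of ZNF326 at chr1:90013015-90013214 (plus strand) and of ZNF148 at chr3:125313256-125313455 (minus strand), with coding bases in capitals and intron in lower case. The last 2 are finger-array bins with many overlaps, of ZNF675 at chr19:23653704-23653903 (minus strand) and ZNF317 at chr19:9160280-9160479 (plus strand). There the capitals mark bases that encode a finger and lower case marks the linkers between fingers and other coding bases.
ZNF316: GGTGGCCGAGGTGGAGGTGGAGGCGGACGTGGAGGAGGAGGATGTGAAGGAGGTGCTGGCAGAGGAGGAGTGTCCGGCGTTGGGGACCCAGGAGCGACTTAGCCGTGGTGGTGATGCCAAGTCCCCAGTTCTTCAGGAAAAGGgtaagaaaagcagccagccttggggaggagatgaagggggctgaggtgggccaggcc
ZNF326: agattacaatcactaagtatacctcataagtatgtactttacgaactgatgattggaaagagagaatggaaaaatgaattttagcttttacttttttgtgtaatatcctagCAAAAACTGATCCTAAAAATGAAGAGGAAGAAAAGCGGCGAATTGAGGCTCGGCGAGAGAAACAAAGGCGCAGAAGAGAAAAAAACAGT
ZNF148: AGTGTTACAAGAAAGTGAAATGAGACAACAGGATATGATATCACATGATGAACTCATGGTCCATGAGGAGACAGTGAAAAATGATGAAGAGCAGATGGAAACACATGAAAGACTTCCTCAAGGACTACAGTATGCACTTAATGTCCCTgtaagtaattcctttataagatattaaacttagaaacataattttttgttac
ZNF675: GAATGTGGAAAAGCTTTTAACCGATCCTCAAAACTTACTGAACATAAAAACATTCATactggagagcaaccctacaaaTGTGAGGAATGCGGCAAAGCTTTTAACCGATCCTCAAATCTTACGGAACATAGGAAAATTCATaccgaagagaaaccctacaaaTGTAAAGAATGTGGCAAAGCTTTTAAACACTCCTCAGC
ZNF317: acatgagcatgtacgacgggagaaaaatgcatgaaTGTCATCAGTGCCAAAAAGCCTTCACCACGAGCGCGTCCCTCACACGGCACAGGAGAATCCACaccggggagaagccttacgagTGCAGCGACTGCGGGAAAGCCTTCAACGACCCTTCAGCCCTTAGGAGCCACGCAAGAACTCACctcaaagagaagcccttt

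With tagged CFAP20 the ZNF316 bin had 22 and 11 overlaps in replicates 1 and 2, and in CFAP20-KO it had 0 and 1. The ZNF326 bin held 16 and 10 overlaps with tagged CFAP20, against 0 and 1. The ZNF148 bin held 14 and 8, against 0 and 0. The finger-array bins were lower: ZNF675 had 7 and 7 overlaps and ZNF317 had 7 and 4, with none in either CFAP20-KO library. With at most 1 CFAP20-KO overlap in each, no fold change is given for these single bins.

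A larger share of ZNF genes than of other genes had signal in every library, with and without the tag. Signal above 0 was found for 39.2% and 21.2% of the ZNF genes in CFAP20-KO replicates 1 and 2, and for 83.3% and 86.0% in tagged-CFAP20 replicates 1 and 2. The same shares of the other genes were 24.1%, 15.2%, 53.2% and 51.9%. In all, 203 ZNF genes had signal in at least 1 library, and 19 were at 0 in all 4, among them ZNF683, ZNF99 and ZNF257. Depth was higher in both tagged-CFAP20 libraries, and its part in these shares was not tested.

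**Figure D1:**
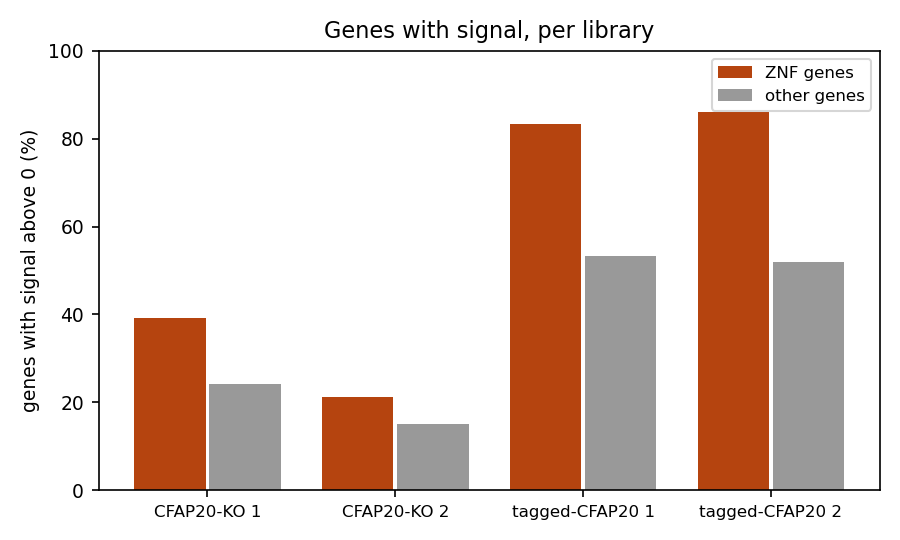
Share of genes with signal above 0 (vertical axis, percent) in each of the 4 libraries, for the 222 ZNF genes and the 9445 other genes. The ZNF bar is the taller in every library, and both bars are higher in the 2 tagged-CFAP20 libraries, which also held more read overlaps in all windows.

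The share of the gene signal that fell on the ZNF genes did not differ between the groups beyond the spread of the libraries. Their summed signal was 16683 and 27411 in the CFAP20-KO libraries and 49100 and 44127 in the tagged-CFAP20 libraries, a ratio of means of 2.11. The other genes had a ratio of 2.18. Of all gene signal, the ZNF genes held 2.20% and 2.53% in the CFAP20-KO libraries and 2.31% and 2.35% in the tagged-CFAP20 libraries. The tagged-CFAP20 values lay between the CFAP20-KO values, and the difference of the means was -0.035 percentage points (exact two-sided permutation test, p = 1.0). With 2 against 2 libraries the smallest p such a test can give is 0.333. Without CFAP20-KO replicate 2 the difference was 0.13, and without ZNF644, the member with most signal, it was 0.033.

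Signal per kilobase was higher for the ZNF genes than for the other genes in both groups. It was 4.26 ± 1.47 (SD, n = 2) in CFAP20-KO and 9.01 ± 0.68 (SD, n = 2) with tagged CFAP20, against 3.17 ± 0.78 and 6.90 ± 0.60 (SD, n = 2) for other genes. In bulk samples, fewer cells with a transcript and less RNA per cell cannot be told apart, and no measure of the transcripts' abundance was used here. The ZNF genes off chromosome 19 carried 10.7 ± 0.84 (SD, n = 2) units per kilobase with tagged CFAP20, against 6.95 ± 0.49 (SD, n = 2) for those on chromosome 19. In CFAP20-KO the same values were 4.99 ± 2.29 and 3.40 ± 0.49 (SD, n = 2). Ratios of tagged-CFAP20 to CFAP20-KO means were close in both places, 2.15 off chromosome 19 and 2.04 on it. Genes on chromosome 19 that are not named ZNF stood at 9.70 ± 0.90 (SD, n = 2) with tagged CFAP20 and 3.67 ± 1.33 (SD, n = 2) in CFAP20-KO. These differences between places have no test.

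By number of fingers, the signal per kilobase with tagged CFAP20 was 9.02 ± 0.62 for members with 6 or more fingers, 9.30 ± 0.84 for those with 1 to 5 and 9.21 ± 1.57 for those with none in their coding sequence (SD, n = 2 each). In CFAP20-KO it was 4.44 ± 1.26, 4.28 ± 2.37 and 1.40 ± 0.50 (SD, n = 2 each), the last from 2 members with any reads. The ratio of tagged-CFAP20 to CFAP20-KO means was 2.03 for 6 or more fingers and 2.17 for 1 to 5, and it has no test. For the class with none no ratio is given. Its CFAP20-KO signal came from ZNF330, with 1 and 0 overlaps, and ZNF365, with 1 and 1. By length, with tagged CFAP20, members under 20 kb had 9.83 ± 0.45 units per kilobase, those of 20 to 50 kb 8.58 ± 0.88 and the 11 over 50 kb 9.24 ± 0.37 (SD, n = 2 each). With tagged CFAP20 the intervals of mean ± SD overlap between neighbouring classes of fingers, and classes of length share many genes with classes of fingers.

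Signal was unevenly spread over the family. With tagged CFAP20 the median member had a summed signal of 134.5, the lower quartile was 39.8 and the upper quartile 264.6, while the median member had 0 in CFAP20-KO. The 12 members with most signal held 30.2% of the ZNF read overlaps in the tagged-CFAP20 libraries. Across the 222 members the summed signal of the 2 tagged-CFAP20 libraries had a Pearson correlation of 0.95, and that of the 2 CFAP20-KO libraries one of 0.54; these are correlations across genes, which share library and depth and are not independent replicates.

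ZNF644, whose protein binds the histone methyltransferases G9a and GLP, had most signal in both groups. Its gene spans chr1:90915298-91022272 on the minus strand. Its summed signal was 830 and 2769 in the CFAP20-KO libraries, from 10 and 10 overlaps, and 2442 and 2062 in the tagged-CFAP20 libraries, from 190 and 148 overlaps. The groups overlapped, since CFAP20-KO replicate 2 was the highest of the 4. After pooling reads by group, which gives the deeper library more weight, the ratio of tagged CFAP20 to CFAP20-KO was 1.72 with an exact 95% interval of 1.02 to 3.11, and it did not pass the threshold across all genes (two-sided exact counting test, Benjamini-Hochberg adjusted p = 0.236).

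ZNF326, part of a complex that binds RNA polymerase II and messenger ribonucleoprotein and takes part in splicing of AT-rich exons, was 1 of 4 members that passed the exact counting test. Its gene spans chr1:89995110-90035533 on the plus strand, and its signal was 332 and 830.6 in the CFAP20-KO libraries against 1542 and 1352 with tagged CFAP20. The pooled ratio was 3.31 (95% interval 1.39 to 10.3, adjusted p = 0.0395 in the exact counting test). ZNF148, a Krüppel-type factor that binds GC-rich promoters, lies at chr3:125225669-125375325 on the minus strand. Its signal was 249 and 553.8 in CFAP20-KO and 1530 and 1198 with tagged CFAP20, a pooled ratio of 3.90 (1.49 to 14.5, exact counting test adjusted p = 0.0219). In both genes each tagged-CFAP20 library lay above each CFAP20-KO library, as in 48.8% of all tested genes with CFAP20-KO reads.

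ZNF146, also called OZF, is made up almost wholly of fingers and lies at chr19:36214602-36238771 on the plus strand. Its signal was 166 and 276.9 in CFAP20-KO against 938.3 and 1143 with tagged CFAP20, and its pooled ratio was 5.92 (1.60 to 49.4, adjusted p = 0.0295 in the exact counting test). All of its tagged-CFAP20 overlaps lay in bins that are also covered by ZNF565, and the files do not keep the strand, so the 2 genes cannot be told apart. ZNF316, a KRAB gene at chr7:6637318-6658279 on the plus strand, had 0 and 553.8 in CFAP20-KO and 976.9 and 599.1 with tagged CFAP20. Its pooled ratio was 9.11 (1.59 to 363.9, adjusted p = 0.0395), resting on 1 pooled CFAP20-KO read. The summed signal of all genes had a ratio of group means of 2.17, which lies within the interval of each of these 4 genes. With an equal share of the gene signal as the null, the unadjusted p of the exact counting test was 0.693 for ZNF326 and 0.422 for ZNF148. It was 0.246 for ZNF146 and 0.275 for ZNF316. None of these 4 genes passed limma across all genes, whose adjusted p was 0.176 for ZNF326, 0.105 for ZNF148, 0.0677 for ZNF146 and 0.363 for ZNF316. With CFAP20-KO replicate 1 left out, the limma log2 changes of ZNF326, ZNF148 and ZNF146 were 0.79, 1.27 and 1.87. They were 2.09, 2.40 and 2.57 with CFAP20-KO replicate 2 left out. Without tagged-CFAP20 replicate 1 they were 1.34, 1.66 and 2.36, and without tagged-CFAP20 replicate 2 they were 1.53, 2.01 and 2.08. A group of 1 library was assumed to vary like the others, so only the log2 changes are given for these 3 genes. For ZNF316 the CFAP20-KO library that remains without replicate 2 is at 0, so that no fold change is given.

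ZNF37A, a KRAB gene of the pericentromeric part of chromosome 10 (chr10:38094334-38150293, plus strand), was the only member with reads in CFAP20-KO that passed limma. It had 9 and 3 overlaps in the CFAP20-KO libraries, a mean signal of 788.8 ± 59.1 (SD, n = 2), and 132 and 144 with tagged CFAP20, a mean of 1852 ± 219 (SD, n = 2). The fitted log2 change was 1.22 (SE 0.25, limma adjusted p = 0.0371), with both tagged-CFAP20 libraries above both CFAP20-KO libraries. The pooled ratio was 2.34 (1.21 to 5.19), and the exact counting test gave an adjusted p of 0.0668. The limma call was lost without either tagged-CFAP20 replicate, where the log2 change was 1.34 without replicate 1 and 1.10 without replicate 2. It was also lost when libraries were scaled to the same window total, with a log2 change of 0.097 (limma adjusted p = 0.839), and with the replicate block (limma adjusted p = 0.197). The limma call was lost as well with quantile normalization, both larger pseudocounts, no trend, no filter and a mean signal of at least 100, with adjusted p from 0.0608 to 0.588. It was kept over all bins to 100 kb. The log2 change was 1.14 without CFAP20-KO replicate 1 and 1.29 without CFAP20-KO replicate 2. Of its tagged-CFAP20 overlaps, 98.2% lay in bins also covered by the pseudogene PLD5P1. It also had the highest tagged-CFAP20 signal per kilobase of the family, 59.3 units, followed by ZNF703, a co-repressor that acts in luminal breast cells, with 50.2, and ZNF24, a SCAN-domain factor, with 46.1.

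The remaining members of the 12 with most signal passed neither test. ZNF804A, a single-finger gene at a locus associated with schizophrenia, had 166 and 830.6 in CFAP20-KO and 1170 and 1324 with tagged CFAP20. In ZNF605 the values were 166 and 553.8 against 925.4 and 891.7, in bins all covered by CHFR as well. ZNF131, a BTB-domain member, had 166 and 276.9 against 976.9 and 766.3. In these 3 genes, and in ZNF91 and ZNF251 below, both tagged-CFAP20 libraries lay above both CFAP20-KO libraries. The same held for 38.8% of tested ZNF genes and 48.8% of all tested genes with CFAP20-KO reads. ZNF91, a KRAB protein that binds the SVA retrotransposons of primates, had 498 and 276.9 against 1041 and 654.9. ZNF251 had 415 and 553.8 against 886.9 and 585.2, so that the groups nearly met. ZNF496, which carries a SCAN and a KRAB domain, had 249 and 1108 in CFAP20-KO against 694.1 and 752.4, and the groups overlapped.

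**Figure D2:**
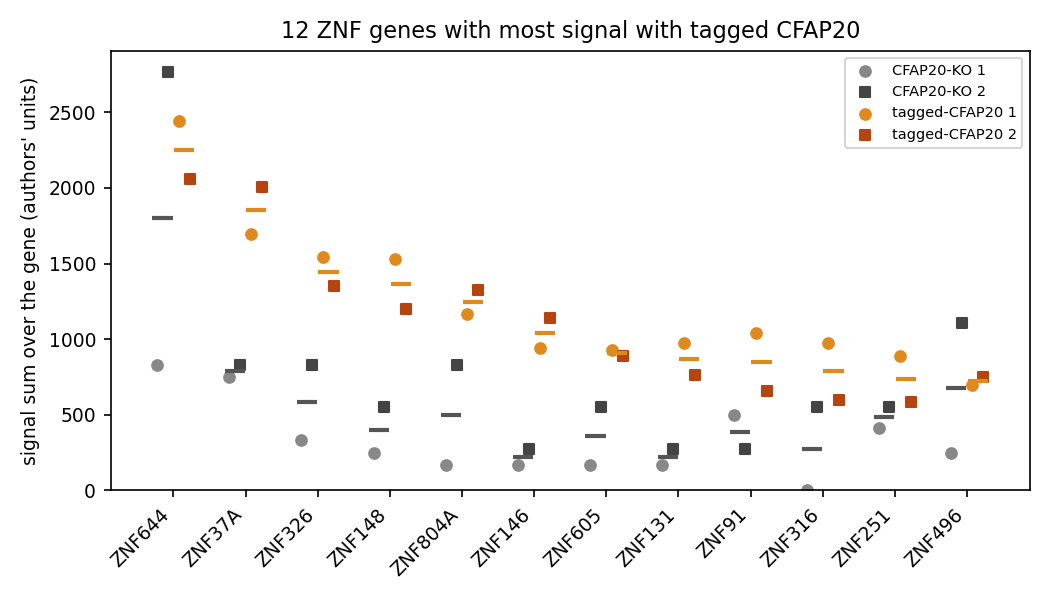
Summed signal in the authors' units (vertical axis) of the 12 ZNF genes with most signal with tagged CFAP20, 1 point per library and a short line at each group's mean of 2 libraries. In ZNF644 and ZNF496 the CFAP20-KO replicate 2 point lies above both tagged-CFAP20 points, and in the other genes both tagged-CFAP20 points lie above both CFAP20-KO points.

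Across the family, limma on log2(signal + 10) called 76 of the 180 ZNF genes tested (42.2%) higher with tagged CFAP20, where 37.6% of all 4461 genes tested were called. With all libraries none was called lower, against 0.0672% of all genes, and none was lower at an unadjusted p under 0.05. The median log2 change of the ZNF genes was 2.46 and that of all genes 2.10. These medians depend on the pseudocount: with 100 in place of 10 they were 0.75 and 0.72, and with 300 they were 0.37 and 0.35. In the simulated data limma, which takes no account of depth, called many unchanged genes, so its count is not read as a number of changed genes. Of the 76 calls, 75 were genes at 0 in both CFAP20-KO libraries, and for 65 of those the tagged-CFAP20 mean was under the 263.2 units that 3 CFAP20-KO reads would give. The smallest limma p-values belonged to such genes: ZNF213, ZNF90, ZNF808, ZNF19 and ZNF746 had tagged-CFAP20 means of 40.2 to 113.6 and 0 in both CFAP20-KO libraries (limma adjusted p = 0.00597 for each). No fold change is given for them, because both groups lie under that limit. Without CFAP20-KO replicate 1 the median log2 change was 3.20 for the ZNF genes and 2.31 for all genes. It was 2.28 and 1.82 without CFAP20-KO replicate 2. Without tagged-CFAP20 replicate 1 it was 1.35 and 1.39, and without tagged-CFAP20 replicate 2 it was 1.66 and 1.58. The genes tested differ between these fits, and several named members changed direction in them, as given below. Without either tagged-CFAP20 replicate no ZNF gene was called in either direction.

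The exact counting test, which takes the depth of each library into account but not the spread between replicates, called 4 of 165 ZNF genes (2.42%) higher, where 8.72% of all 3668 genes tested were called. It called none lower, against 0.0545% of all genes. At an unadjusted p under 0.05 the test gave 17 of 165 ZNF genes higher (10.3%) and 1 lower (0.606%), against 19.8% and 0.327% of all genes. Without CFAP20-KO replicate 1 the test called 0 ZNF genes. No ZNF gene of the 164 tested both ways passed both tests in either direction, where 3.07% of all genes did upward and 0.0547% downward. When the null was an equal share of the gene signal instead of an equal signal, no ZNF gene passed in either direction, against 0.109% of all genes higher and 0.245% lower. At an unadjusted p under 0.05 that form gave 0 ZNF genes higher and 7 of 165 lower (4.24%), against 1.34% and 5.48% of all genes. The 7 were ZNF101, ZNF311, ZNF470, ZNF518B, ZNF562, ZNF619 and ZNF669, which are named here after their values were seen.

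**Figure D3:**
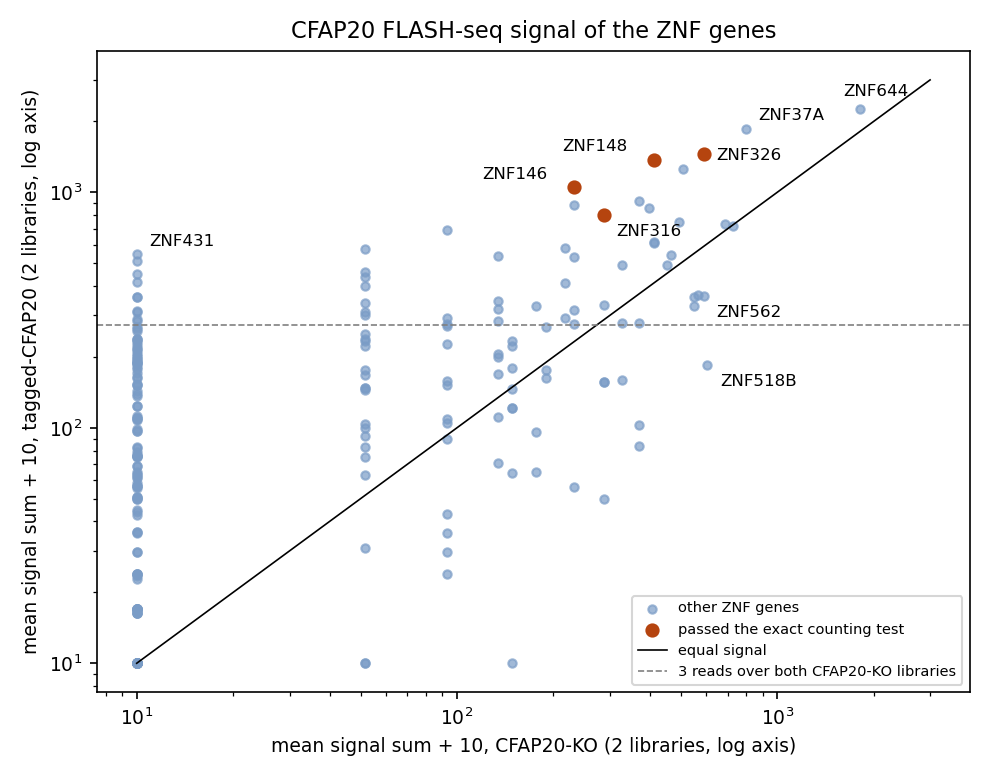
Mean summed signal plus 10 of each of the 222 ZNF genes in CFAP20-KO (horizontal log axis) and with tagged CFAP20 (vertical log axis), 2 libraries each; the solid line marks equal signal and the dashed line the 263.2 units given by 3 reads over both CFAP20-KO libraries. The column of points at the left holds the genes at 0 in both CFAP20-KO libraries, most of them under the dashed line, and the 4 red points are ZNF326, ZNF148, ZNF146 and ZNF316.

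Genes at 0 in both CFAP20-KO libraries entered limma only through both tagged-CFAP20 libraries, which fixed their direction. With them, both tagged-CFAP20 libraries exceeded both CFAP20-KO libraries in 69.4% of all tested genes. The reverse held for 3 of the 180 tested ZNF genes (1.67%), against 1.91% of all tested genes. Among the 98 tested ZNF genes with any CFAP20-KO reads the tagged-CFAP20 libraries were both higher in 38 (38.8%), against 48.8% of the 2663 such genes overall. A total of 102 ZNF genes had reads with tagged CFAP20 and none in CFAP20-KO. Of these, 10 had a tagged-CFAP20 mean above the limit of 263.2 units: ZNF124, ZNF160, ZNF226, ZNF227, ZNF250, ZNF267, ZNF431, ZNF510, ZNF623 and ZNF7. The highest was the KRAB gene ZNF431, with 475.6 and 599.1 in the tagged-CFAP20 libraries, at least 2.04-fold higher against the 3-read limit of CFAP20-KO. With the counting error of both groups the exact lower 95% limit of its pooled ratio was 1.59. ZNF7 followed with 411.3 and 585.2, at least 1.89-fold higher against the same limit and with an exact lower limit of 1.48, although 51.4% of its overlaps lay over COMMD5 as well. The exact counting test gave ZNF431 an adjusted p of 0.0611 and ZNF7 one of 0.0828.

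Several ZNF genes with much CFAP20-KO signal had no higher mean signal with the tag. ZNF782 had 332 and 1108 in CFAP20-KO and 809.8 and 613.1 with tagged CFAP20. ZNF518B had 83.0 and 1108 against 167.1 and 181.1, and ZNF562 had 332 and 830.6 against 411.3 and 292.6. In both, the mean was set by CFAP20-KO replicate 2, in which 1 overlap counts for most, and 90.6% of the tagged-CFAP20 overlaps of ZNF562 lay over the antisense gene ZNF561-AS1. ZNF282, a KRAB gene known to bind the long terminal repeat of HTLV-1, had 0 and 1108 against 437.0 and 278.7. Without CFAP20-KO replicate 1, the limma log2 changes of ZNF782, ZNF282, ZNF518B and ZNF562 were -0.64, -1.64, -2.60 and -1.24. Without CFAP20-KO replicate 2, those of ZNF782, ZNF518B and ZNF562 were 1.06, 0.98 and 0.062. For ZNF282 the CFAP20-KO library that remains then is at 0, and the fitted value is not read as a fold change. None of the 4 was called with all libraries. Among members with a lower mean with tagged CFAP20, the smallest limma p-values were those of ZNF470 (166 and 276.9 against 64.3 and 27.9), ZNF669 (166 and 553.8 against 64.3 and 83.6) and ZNF311 (166 and 553.8 against 102.8 and 83.6). Their CFAP20-KO values came from 3 or 4 overlaps each, and the limma adjusted p was 0.144, 0.238 and 0.298.

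Within the ZNF genes the signal was denser over coding sequence than over introns in all 4 libraries, while introns, which make up most of the bins, held 60.7% and 52.5% of the overlaps in CFAP20-KO and 53.1% and 50.8% with tagged CFAP20. Bins with most of their bases in an exon held 39.3% and 47.5% of the ZNF overlaps in the CFAP20-KO libraries and 46.9% and 49.2% in the tagged-CFAP20 libraries. The means differed by 4.68 percentage points (exact two-sided permutation test, p = 0.667). This difference was 0.59 without CFAP20-KO replicate 1 and 8.77 without CFAP20-KO replicate 2. Other genes had 32.2% and 32.3% in the CFAP20-KO libraries and 36.3% and 36.9% in the tagged-CFAP20 libraries (difference 4.40, exact permutation p = 0.333). The first kilobase of the ZNF genes held 5.47% and 4.04% against 7.33% and 6.73%, a difference of 2.27 percentage points (exact permutation p = 0.333, the smallest possible), with both tagged-CFAP20 libraries above both CFAP20-KO libraries. In other genes the first kilobase held 3.50% and 5.49% against 5.77% and 5.69%. That difference was 1.24 percentage points (exact permutation p = 0.333), again with both tagged-CFAP20 libraries above both CFAP20-KO libraries. The ZNF share minus that of other genes was 1.97 and -1.45 percentage points in CFAP20-KO. With tagged CFAP20 it was 1.56 and 1.03, so the groups overlapped. The CFAP20-KO shares of the ZNF genes were taken from only 201 and 99 overlaps.

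Finger arrays and the rest of the coding sequence carried alike densities. Relative to the introns of the same genes, the density over finger arrays was 3.63 and 6.19 times as high in the CFAP20-KO libraries and 5.84 and 6.33 times as high in the tagged-CFAP20 libraries. Over other coding sequence of the ZNF genes it was 3.63 and 7.61 times, and 6.01 and 6.25 times. The CFAP20-KO densities came from only 22 and 16 overlaps in finger arrays and 19 and 17 in other coding sequence. Exact permutation tests of tagged CFAP20 against CFAP20-KO gave p = 0.667 for finger arrays and p = 1.0 for other coding sequence. Coding sequence of other genes stood at 6.19 and 6.98 times its introns in CFAP20-KO and 9.30 and 9.46 times with tagged CFAP20. That was above both parts of the ZNF coding sequence in every library but CFAP20-KO replicate 2. There the 7.61 of other ZNF coding sequence, from 17 overlaps, was higher. Untranslated and noncoding exon of the ZNF genes stood at 2.06 and 1.78 times in CFAP20-KO and 2.21 and 2.55 times with tagged CFAP20. Near-identical fingers recur within and between these genes, and how reads that fit several places were handled is not given in the sources used here, so the values over finger arrays are uncertain.

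**Figure D4:**
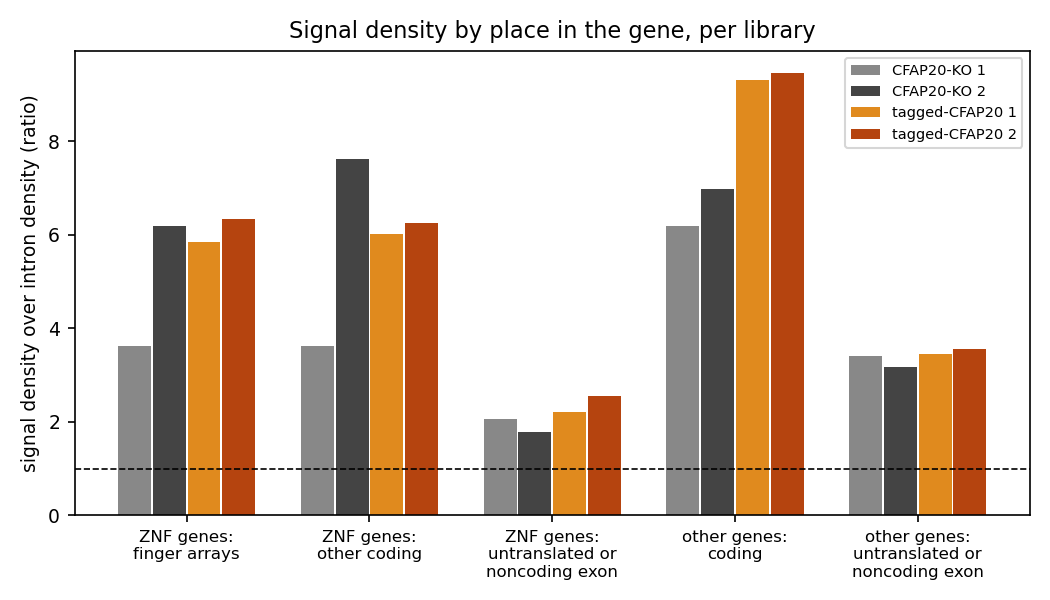
Signal density relative to the introns of the same genes (vertical axis, ratio, dashed line at 1) in finger arrays, other coding sequence and untranslated or noncoding exon of ZNF genes, and in coding sequence and untranslated or noncoding exon of other genes, with 1 bar per library. Finger arrays and other coding sequence of ZNF genes have bars of nearly the same height with tagged CFAP20, from 5.84 to 6.33, under the 9.30 and 9.46 of coding sequence in other genes.

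The reads were thinly spread along the members. Of 25863 bins, 4340 had any overlap with tagged CFAP20, and only 20 bins, in 11 members, had 10 or more. These 20 bins held 4.32% of the tagged-CFAP20 overlaps of the ZNF genes. Of the 20, 13 were mostly coding, 4 of them finger array, and 4 were mostly untranslated or noncoding exon. The other 3 were mostly intron and reached into coding sequence, as does the ZNF326 bin printed above. ZNF326 had 6 of the 20 bins, the most of any member, and ZNF316, ZNF148, ZNF146 and ZNF644 had 2 each. In 6 of the 20 bins there was also an overlap in CFAP20-KO. Of all tagged-CFAP20 overlaps on ZNF genes, 20.2% lay in bins mostly covered by another annotated gene on either strand.

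Coding bins with more reads were richer in purines, A and G, on the strand of the gene. Among mostly coding bins of ZNF genes, the mean purine content was 53.4% ± 5.1 (SD over 1032 bins) where the tagged-CFAP20 libraries had no overlap. It was 54.0% ± 4.8 over bins of 170 genes with 1 to 2 overlaps, 55.0% ± 4.2 over 205 bins with 3 to 5 and 57.9% ± 6.8 over 44 bins with 6 or more (all SD). The medians of these classes were 54.5%, 54.5%, 55.0% and 57.25%, without a rise from 0 to 1 to 2 overlaps. Each tagged-CFAP20 library taken alone had the same order of means, from 53.4% to 62.3% in replicate 1 and from 53.7% to 61.1% in replicate 2. The top classes held only 11 and 10 bins, with SDs of 9.9 and 11.7. Their medians were lower than their means, 57.5% and 57.0%, against medians of 54.0% and 54.5% in bins with no overlap. In CFAP20-KO, 70 bins with an overlap had a mean of 56.7% ± 5.4 and 1856 bins without one had 53.8% ± 5.0 (SD). Other genes showed the same order at a lower level, from 49.96% ± 6.2 over 23851 bins with no overlap to 53.9% ± 7.4 over 2383 bins with 6 or more (SD). Bins of 1 gene share its sequence and level, and the SDs of neighbouring classes overlap. The printed ZNF316 bin is 68.5% purine, the ZNF326 bin 63.5%, the ZNF148 bin 59.0%, and the finger-array bins of ZNF675 and ZNF317 are 56.5% and 55.5%. Of the coding bases of the ZNF326 bin alone, 76.4% are A or G. GC content was 47.2% in ZNF bins with no tagged-CFAP20 overlap and 41.6% in those with 6 or more, and 53.1% and 48.5% in other genes. In each tagged-CFAP20 library alone the ZNF value was lowest at 3 to 5 overlaps, 41.3% in replicate 1 and 43.0% in replicate 2, and higher again in the top class.

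**Figure D5:**
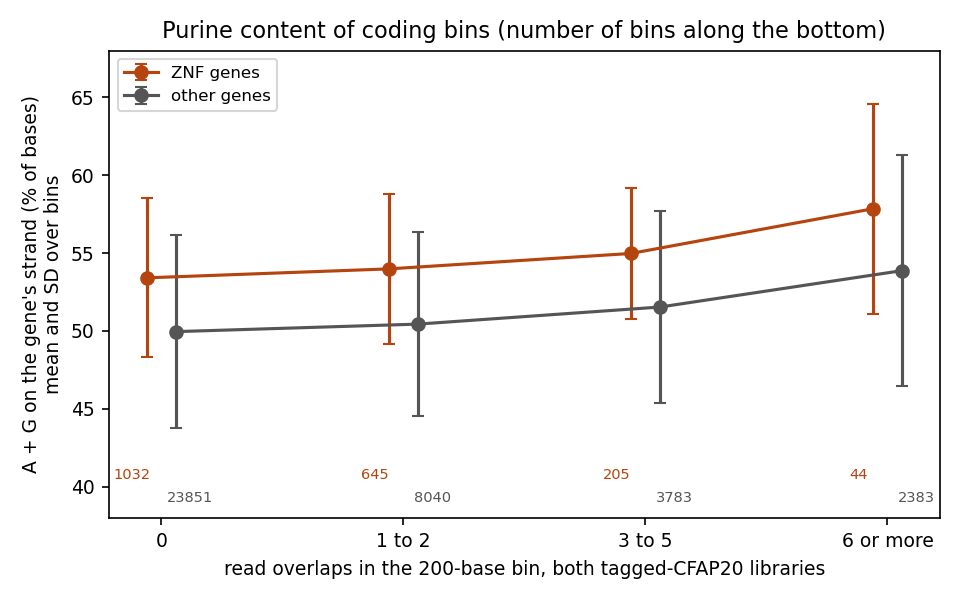
Purine content (A plus G on the strand of the gene, vertical axis in percent of bases, mean and SD over bins) of coding bins by their number of read overlaps in both tagged-CFAP20 libraries, for ZNF genes and other genes, with the number of bins along the bottom. The means go from 53.4% to 57.9% in ZNF genes and from 49.96% to 53.9% in other genes, and the SDs of the classes overlap.

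Partners of the KRAB zinc fingers were few in the tables, with rows for 4 of 25 listed co-repressor genes. Of these 4, 1 passed the exact counting test upward and none passed limma. That gene was DNMT1, the maintenance DNA methyltransferase, with 16 and 7 overlaps in CFAP20-KO and 255 and 208 with tagged CFAP20, a pooled ratio of 2.08 (95% interval 1.28 to 3.61, exact counting test adjusted p = 0.0226, limma adjusted p = 0.0681). The chromatin remodeller ATRX had 12 and 1 overlaps against 92 and 91, and TRIM24, a relative of TRIM28, 3 and 0 against 31 and 20. Of 60 genes with other zinc finger names (ZBTB, ZSCAN, ZKSCAN, ZFP, PRDM and KLF), limma called 19 of 42 tested higher, beside 37.6% of all genes, and the exact counting test 2 of 37, beside 8.72% of all genes. The 2 were ZBTB38, a protein that binds methylated DNA, with a pooled ratio of 2.57 (1.58 to 4.45), and ZFP36L1, with 4.40 (2.21 to 10.3). ZFP36L1 has CCCH fingers and binds AU-rich RNA, so it is no C2H2 gene in spite of its symbol. ZKSCAN1, the third of that list by signal, had a pooled ratio of 1.36 (0.738 to 2.79).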

How the data were processed

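FLASH-seq libraries of CFAP20-KO and tagged-CFAP20 RPE1 cells, 2 each, were grouped by their titles. The submitters' processing notes name hg38, R 4.0.5, HOMER 4.8.2, Bowtie2 2.3.5 and UMI-tools 1.0.0, without settings for counting or normalization. As signal, the authors deposited coverage signal per gene in bins of 200 bases from 100 kb before to 100 kb after the gene start, without strand (Pearson correlation of overlapping opposite-strand windows at least 0.987). All values were whole multiples of 1 constant per library within a tolerance of 0.01, which gave the read overlaps. A column of another experiment in the tables (1 in all) was not used.

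Bins from gene start to gene end, at most 100 kb, were summed, and genes absent from a table were set to 0. limma 3.58.1 with trend (R 4.3.3) was run on log2(signal + 10) for genes above 0 in at least 2 libraries. The exact counting test was a two-sided binomial test of reads pooled by group (overlaps divided by 1.37) for genes with at least 5 reads. Both were adjusted by Benjamini-Hochberg over all genes tested, at a threshold of 0.05. On data simulated with the libraries' depths, limma called 620 of 3878 unchanged genes and the exact counting test 5 of 3175. Of 100 genes changed 4-fold and 100 changed 8-fold, limma called 34 and 54 and the exact counting test 72 and 100. The simulation held counting error only, without spread between replicates, which is what the exact counting test assumes. It therefore cannot show how that test behaves with such spread. Positions and fingers (pattern C, 2 residues, C, 12 residues, H, 3 to 5 residues, H) came from GENCODE 44 on hg38, with fingers from its translated coding sequences instead of RefSeq proteins, and all 222 gene IDs matched, 2 of them under another symbol. Named genes were the 12 and 8 members with most signal with tagged CFAP20 and in CFAP20-KO, the 5 with the smallest limma p, the 3 with the smallest p among the lower ones, and, added after values were seen, those that passed the exact counting test. The members and lists were chosen with earlier results of these data known. Alternatives covered the pseudocount, filter, scaling, trend, window, null, reads per overlap and each library left out.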

Additional observations from a re-analysis of the deposited data

How the results depend on the processing

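The limma count of ZNF genes (76) and that of all genes (1678) fell to 47 and 1048 with a pseudocount of 300, to 21 and 351 with a mean signal of at least 100, and to 0 and 0 with no filter and with quantile normalization. Over all bins to 100 kb downstream the counts were 45 of 212 ZNF genes (21.2%) and 2072 of all 7330 genes (28.3%), against 42.2% and 37.6% over the genes alone. Scaling to the same window total moved the median log2 change of all genes from 2.10 to 1.57, and quantile normalization moved it to -0.13. Leaving out 1 library gave 0 to 137 ZNF genes and 0 to 3256 of all genes; with 1 library in a group, it was assumed to vary like the others. The replicate block gave 82 ZNF genes and 1874 of all genes. Deviations of same-numbered libraries had a correlation of 0.005 over 4461 genes, of which only 2663 had CFAP20-KO reads. With so few reads that value cannot show whether the replicate numbers pair the libraries. The exact counting test gave 0 ZNF genes with the same share as the null, 14 with overlaps not divided, 0 with overlaps divided by 2, 34 over all bins to 100 kb, and 0 to 5 with 1 library left out. The ZNF share differed by -0.20 to 0.13 percentage points with 1 library left out and by 0.033 without ZNF644. Among 297 alternatives for 24 named genes, 18 turned the direction. With the same window total and quantile normalization the log2 change was -0.56 and -0.37 for ZNF644, -0.66 and -0.32 for ZNF496, -0.53 and -0.35 for ZNF251 and -0.90 and -0.61 for ZNF782. Quantile normalization gave -0.16 for ZNF90 and -0.28 for ZNF213. With 1 library left out it ranged from -0.30 to 1.42 for ZNF644, -0.61 to 1.50 for ZNF496, -0.64 to 1.06 for ZNF782, -1.64 to 5.17 for ZNF282, -1.24 to 0.062 for ZNF562 and -2.60 to 0.98 for ZNF518B. In each, the lowest value came without CFAP20-KO replicate 1 and the highest without replicate 2. The 5.17 of ZNF282 depends on the pseudocount of 10, because the CFAP20-KO library that remains is at 0. That value is not read as a fold change. Over all bins to 100 kb the log2 change was 0.18 for ZNF311 and -0.30 for ZNF213. The cause of these changes was not tested. CFAP20-KO depth limits every comparison of single ZNF genes.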
